A study of Mus musculus with 6 samples.

Results

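Genes that mark T cells, B cells and plasma cells, and natural killer (NK) and other cytotoxic cells were compared between livers of Balb/cBy and Balb/c mice. The members were 36 listed genes, and each was read from the probe set whose only symbol in the platform annotation was that gene. Lck, a kinase of the T cell receptor, had no such probe set, which left 35 of the 22180 genes tested: 15 of T cells, 10 of B and plasma cells and 10 of NK and cytotoxic cells. Both groups held 3 arrays of total liver RNA, which the labels call biological replicates. All mice were males aged 20 weeks. From 8 weeks of age, and for 12 weeks, they were fed a diet in which fat supplied 58% of the energy. The groups are substrains of 1 albino inbred line, and the labels name no transgene, no drug and no supplier. Every mouse ate this diet, so its own effect cannot be read from these arrays.

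Lymphocytes of the liver sit in the sinusoids and portal tracts among far more numerous hepatocytes. T cells recognise peptides through a receptor that signals through the CD3 chains, the kinases Lck and Zap70 and the adaptor Lat. B cells use membrane immunoglobulin coupled to Cd79a and Cd79b, and plasma cells lose most of that surface apparatus while they secrete antibody. NK cells carry activating and inhibitory lectin-like receptors and kill with perforin and granzymes. In whole liver, fewer cells of a type and less RNA per cell of that type cannot be told apart.

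None of the 35 lymphocyte members passed the test between the substrains, and their differences were small. In the 35 members the difference of Balb/cBy minus Balb/c lay between -0.27 and 0.10 on the log2 scale, with a median of -0.06. The mean was lower in Balb/cBy for 27 of the 35 members (77.1%), against 50.9% of all genes tested, whose median difference was -0.003. None of the 35 passed an adjusted p of 0.05 in limma (adjusted p = 0.999 for each), as was so for all 22180 genes (0% called), 833 of which had an unadjusted p under 0.05. An unadjusted p under 0.05 was reached by 3 members, Cd79b, Ms4a1 and Nkg7, each lower in Balb/cBy, against 1.16% of all genes lower and 2.59% higher at that level. No value of 1 group reached the range of the other for those 3 and for Cd79a, each lower in Balb/cBy, against 3.51% of all genes lower and 4.32% higher without overlap.

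The count of members with a lower mean was 23 (65.7%) when Balb/cBy replicate 3 was left out, against 47.4% of all genes. It was 30 (85.7%) when replicate 1 of that group was left out, against 53.3% of all genes. The number of members with an unadjusted p under 0.05 dropped from 3 to 0 when Balb/cBy replicate 2 was left out, and also when replicate 3 of that group was. It was 2, 1 and 4 when Balb/c replicates 1, 2 and 3 were left out in that order. The share of all genes at that level was not counted in these smaller fits, so the changes cannot be set against it. With the arrays shifted to 1 median, 24 members were lower (68.6%), against 45% of all genes.

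**Figure D1:**
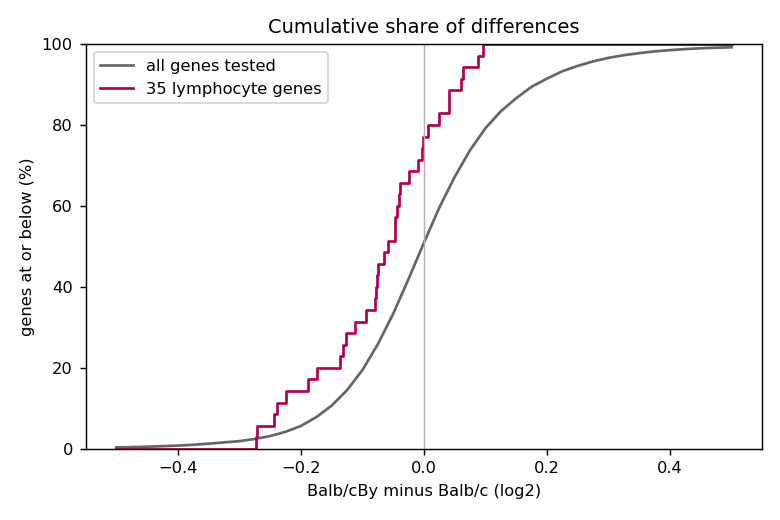
Cumulative percentage of genes (vertical axis) at or below a given log2 difference of Balb/cBy minus Balb/c (horizontal axis), for the 35 lymphocyte genes (red steps) and all 22180 genes tested (grey line). At 0 the red line stands at 77.1% and the grey line at 50.9%, and no member lies above 0.10.

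The arrays bounded the difference of a single gene as follows. The moderated standard error (SE) of a member lay between 0.09 and 0.15. Over the members, the 95% intervals of the difference reached down to -0.58, for Cd4, and up to 0.36, for Cd5. As folds of Balb/cBy over Balb/c these bounds are 0.670 and 1.28. The number of arrays limits this precision, and the smallest two-sided p of an exact permutation test of 3 against 3 arrays is 0.1.

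Levels were set against the lower quartile of all probe sets on each array, which lay between 6.57 and 6.67 on the log2 scale. Of the 35 members, 32 were above it on all 6 arrays. By definition 25% of all probe sets, those without a symbol included, lie below this mark on each array. The share of all genes above it on all 6 arrays was not counted. The other 3 were below it on every array: Il7r of the T cell genes, Ms4a1 of the B cell genes and Klrk1 of the NK cell genes. Against the array median, between 7.66 and 7.74, 16 members were above on all 6 arrays, 7 on some and 12 on none, and 0 exceeded the upper quartile on all 6. Probe sets that carry 1 gene symbol have a higher lower quartile, between 7.16 and 7.27. Against that mark 24 members (of 35) were above on all 6 arrays, 3 on some arrays and 8 on none. Of the probe sets with 1 symbol, 25% lie below it on each array by definition. All 8 hepatocyte markers examined, among them Alb and Apoa1, were above the array's upper quartile on all 6 arrays in this tissue labelled liver. Their list mean lay at 13.3 to 13.4 in Balb/c and at 13.3 to 13.5 in Balb/cBy. Cd3e, Cd79b and Nkg7, which are among the brighter members, were above both lower quartiles on every array. Against the lower quartile of probe sets with 1 symbol, Cd3g, Cd8a and Klrd1 were above on 0 arrays and Cd79a on 1.

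**Figure D2:**
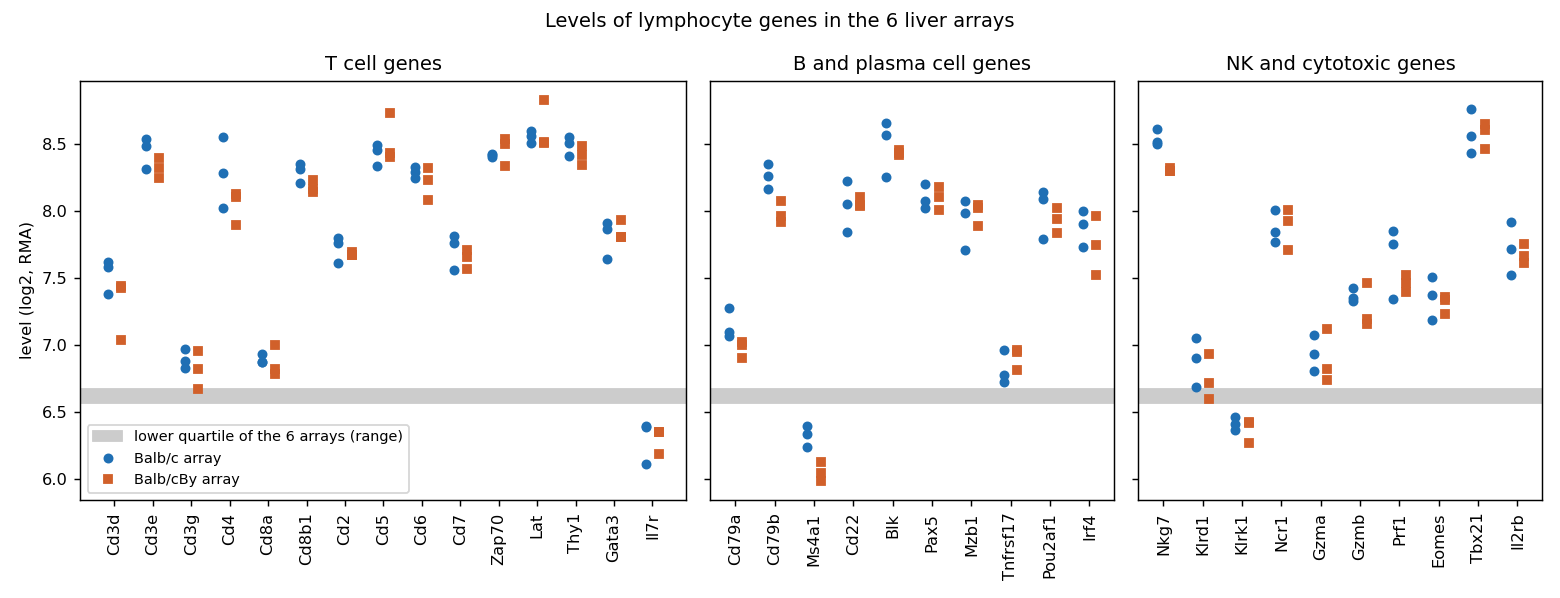
Level of each of the 35 genes (log2 RMA value, vertical axis) in the 3 Balb/c arrays (blue circles) and the 3 Balb/cBy arrays (orange squares), by cell class. The grey band spans the lower quartiles of the 6 arrays, 6.57 to 6.67, and Il7r, Ms4a1 and Klrk1 lie below it.

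The B cell and plasma cell genes held 3 of the 4 members whose groups did not overlap, which is 3 of 10 in this class. Of all genes, 3.51% were lower and 4.32% higher without overlap. Of 10 members, 7 had a lower mean in Balb/cBy, and the median difference was -0.07. Cd79b, the beta chain that carries the signal of the B cell receptor, stood at 8.26, 8.35 and 8.17 in Balb/c replicates 1, 2 and 3 and at 8.08, 7.92 and 7.96 in Balb/cBy. All 3 Balb/cBy arrays were below the lowest Balb/c array. The difference was -0.27 (SE 0.10, 95% interval -0.49 to -0.05), a fold of 0.827, with an unadjusted p of 0.021 and an adjusted p of 0.999 in limma. Its partner Cd79a, the alpha chain, stood at 7.10, 7.28 and 7.07 in Balb/c mice and at 7.02, 6.90 and 7.00 in Balb/cBy mice, also without overlap, though the gap between the groups was only from 7.02 to 7.07. The difference of Cd79a was -0.17 (SE 0.10), with an unadjusted limma p of 0.113.

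Ms4a1, which encodes the B cell surface protein CD20, stood at 6.24, 6.34 and 6.40 in Balb/c mice and at 6.13, 5.99 and 6.04 in Balb/cBy mice. Every Balb/cBy value was below every Balb/c value, and all 6 were below the lower quartile of their array. The difference was -0.27 (SE 0.09, 95% interval -0.48 to -0.06), with an unadjusted p of 0.0188 and an adjusted p of 0.999 in limma. Leaving out any 1 array kept the difference between -0.31 and -0.23 for Ms4a1 and between -0.32 and -0.23 for Cd79b.

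The other B cell genes overlapped between the groups. Cd22, an inhibitory receptor that binds sialic acid, averaged 8.04 ± 0.19 (SD, n = 3) among the Balb/c mice and 8.06 ± 0.039 (SD, n = 3) among the Balb/cBy mice, a difference of 0.02. Blk, a Src-family kinase of B cells, ranged from 8.25 to 8.66 in Balb/c and from 8.42 to 8.45 in Balb/cBy, a difference of -0.06. Pax5, the transcription factor that holds B cell identity, had a difference of -0.003 (SE 0.10), with means of 8.10 in both groups. The differences of Cd22, Blk and Pax5 lay within the spread of the arrays.

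Of the members tied to plasma cells, none separated the groups. Mzb1, a chaperone of the endoplasmic reticulum that helps to assemble antibody, stood at 7.98, 8.07 and 7.71 in Balb/c mice and at 8.04, 7.89 and 8.02 in Balb/cBy mice, a difference of 0.06 (SE 0.12). Tnfrsf17, the survival receptor BCMA, stood at 6.77, 6.73 and 6.96 in Balb/c mice and at 6.96, 6.94 and 6.82 in Balb/cBy mice, a difference of 0.09 (SE 0.10). Balb/c replicate 3 lay lowest of all 6 arrays for Mzb1 and close to the highest for Tnfrsf17, so the groups overlapped in both. Pou2af1, a B cell coactivator of octamer-binding factors, had a difference of -0.07 (SE 0.12). Irf4, a factor needed for plasma cell formation, averaged 7.88 ± 0.14 (SD, n = 3) among the Balb/c mice and 7.74 ± 0.22 (SD, n = 3) among the Balb/cBy mice, a difference of -0.13 (SE 0.13).

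The median of the B and plasma cell genes depended on single arrays. It was 0.01 when Balb/c replicate 2 was left out and -0.15 when replicate 1 of that group was. It was -0.02 with Balb/cBy replicate 2 removed. With weighted arrays it was -0.01 and 5 of the 10 members were lower.

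Ighm and Jchain, which are no members, had higher values in Balb/cBy. Ighm, the mu heavy chain of both membrane and secreted IgM, stood at 9.54, 9.40 and 9.63 in Balb/c mice. In Balb/cBy mice it stood at 10.6, 11.3 and 11.5, a difference of 1.59 (SE 0.21, limma adjusted p = 0.166). That adjusted p was the smallest among all 22180 genes tested. Jchain, which links IgM and IgA units, ranged from 6.91 to 7.10 in Balb/c and from 7.44 to 8.70 in Balb/cBy, a difference of 1.12 (SE 0.28, limma adjusted p = 0.999). The groups did not overlap for either gene. These were the 2 genes with the smallest p among 15 measured of 18 further B and plasma cell genes, of which 7 were higher and 8 lower, with a median of -0.03. An unadjusted p under 0.05 was reached by 3 of the 15, all higher in Balb/cBy, against 2.59% of all genes higher and 1.16% lower at that level. The third was Xbp1, a factor of the unfolded protein response that hepatocytes also express, at 0.37 (SE 0.13), named after its value was seen. Groups did not overlap for 4 of the 15, Xbp1 among them, all higher in Balb/cBy. The shares of all genes without overlap were 4.32% higher and 3.51% lower. Across the 6 arrays, then, Ighm and Jchain were high in the Balb/cBy mice while Mzb1 and Tnfrsf17 overlapped. Cd79a, Cd79b and Ms4a1 were on the low side, with Ms4a1 below the lower quartile on every array. The B cell members Cd22, Blk and Pax5 overlapped, at 0.02, -0.06 and -0.003, as did Pou2af1 and Irf4. Whether the opposed differences of Ighm and Jchain and of Cd79b and Ms4a1 have 1 source was not tested.

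**Figure D3:**
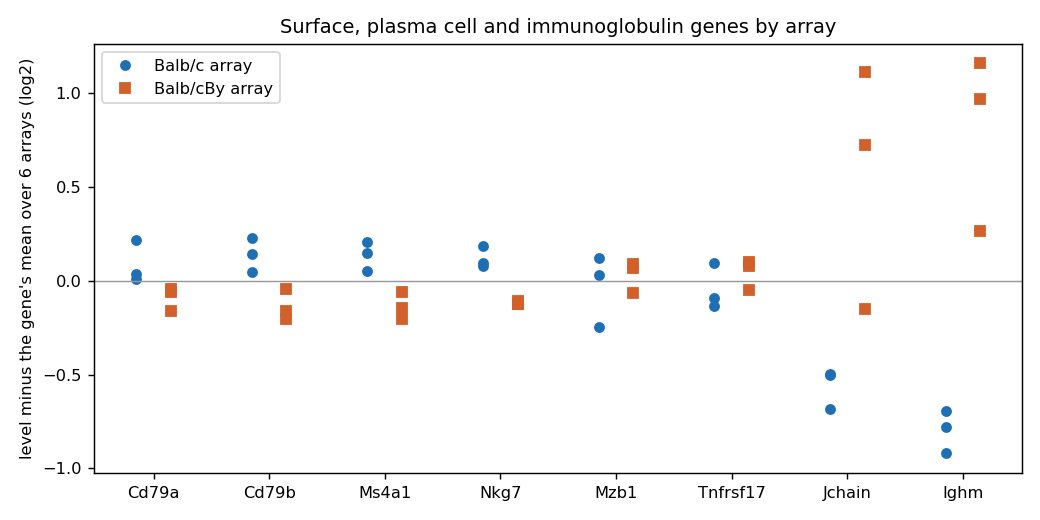
Level of 8 genes in each array minus that gene's mean over the 6 arrays (log2, vertical axis), for Balb/c (blue circles) and Balb/cBy (orange squares). Cd79a, Cd79b, Ms4a1 and Nkg7 have every Balb/cBy array below every Balb/c array, Mzb1 and Tnfrsf17 overlap, and Jchain and Ighm have every Balb/cBy array above. The B and plasma cell members Cd22, Blk, Pax5, Pou2af1 and Irf4, whose groups also overlap, are not drawn.

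Among the NK and cytotoxic genes, 9 of 10 had a lower mean in Balb/cBy, with a median difference of -0.05, and Nkg7 was the 1 member without overlap. The shares of all genes without overlap were 3.51% lower and 4.32% higher. Nkg7, a membrane protein of cytotoxic granules that takes part in their release, stood at 8.50, 8.61 and 8.52 in Balb/c mice and at 8.30, 8.30 and 8.32 in Balb/cBy mice. The 3 Balb/cBy arrays lay close together and below all Balb/c arrays. The difference was -0.24 (SE 0.09, 95% interval -0.44 to -0.04), a fold of 0.848, with an unadjusted p of 0.0234 and an adjusted p of 0.999 in limma. It stayed between -0.26 and -0.21 when any 1 array was left out.

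The effector molecules of killing overlapped between the groups. Prf1, perforin, stood at 7.75, 7.85 and 7.34 in Balb/c mice and at 7.46, 7.40 and 7.52 in Balb/cBy mice, a difference of -0.19 (SE 0.14), with Balb/c replicate 3 below all other arrays. Gzmb, a granzyme that triggers apoptosis through caspases, ranged from 7.33 to 7.42 in Balb/c and from 7.16 to 7.46 in Balb/cBy, a difference of -0.09 (SE 0.11). Gzma, the granzyme with trypsin-like activity, had a difference of -0.05 (SE 0.13). For Gzma, Balb/cBy replicate 1 was the highest of all 6 arrays, at 7.12, and Balb/cBy replicate 3 the lowest, at 6.74.

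The receptors and regulators of NK cells overlapped as well. Klrd1, the CD94 chain of the NKG2 receptors, had a difference of -0.14 (SE 0.13), with Balb/c values from 6.69 to 7.05 and Balb/cBy values from 6.59 to 6.93. Klrk1, the activating receptor NKG2D, had means of 6.41 and 6.37 and a difference of -0.04 (SE 0.09). Ncr1, the activating receptor NKp46 that marks NK cells in mice, had means of 7.87 for Balb/c and 7.88 for Balb/cBy, a difference of 0.01 (SE 0.11, 95% interval -0.25 to 0.27). The interval of Ncr1 held 0 and would also hold a change of 0.27 upwards or 0.25 downwards. Il2rb, the shared receptor chain for interleukins 2 and 15, had means of 7.72 and 7.68 and a difference of -0.04 (SE 0.12). The T-box factors that drive the NK and cytotoxic programmes gave -0.05 (SE 0.11) for Eomes, with means of 7.36 and 7.31, and -0.01 (SE 0.11) for Tbx21, with means of 8.58 and 8.57.

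Of 18 measured of 19 further NK and cytotoxic genes, 13 were lower and 5 higher in Balb/cBy, with a median of -0.05. Ccl5, a chemokine that cytotoxic lymphocytes release, had the smallest p among them. It stood at 10.4, 10.2 and 9.20 in Balb/c mice and at 8.92, 9.14 and 9.41 in Balb/cBy mice, a difference of -0.78 (SE 0.29, limma adjusted p = 0.999). Balb/c replicate 3 fell inside the range of the Balb/cBy arrays. Il18rap, a chain of the interleukin 18 receptor, had the next smallest p, with a difference of -0.13 (SE 0.09). It was the 1 gene of the 18 without overlap between the groups, against 3.51% of all genes lower and 4.32% higher without overlap.

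The promoters of Nkg7 and Cd79a are shown because both genes separated the groups, and the RefSeq table holds the 250 bases before their start (GRCm38.p6, plus strand, 5′ to 3′, matched by symbol). They lie at chr7:43436888-43437137 for Nkg7 and at chr7:24897247-24897496 for Cd79a. Capitals mark the T-box string AGGTGTGA in Nkg7 and the ETS string AGGAAG in Cd79a. Nkg7 also holds that ETS string, which begins 34 bases before its start and is left in lower case.
Nkg7: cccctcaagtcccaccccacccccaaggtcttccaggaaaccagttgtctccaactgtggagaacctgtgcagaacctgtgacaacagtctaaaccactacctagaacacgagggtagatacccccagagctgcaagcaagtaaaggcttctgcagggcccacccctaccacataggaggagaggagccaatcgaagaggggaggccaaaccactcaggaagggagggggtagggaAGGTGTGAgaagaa
Cd79a: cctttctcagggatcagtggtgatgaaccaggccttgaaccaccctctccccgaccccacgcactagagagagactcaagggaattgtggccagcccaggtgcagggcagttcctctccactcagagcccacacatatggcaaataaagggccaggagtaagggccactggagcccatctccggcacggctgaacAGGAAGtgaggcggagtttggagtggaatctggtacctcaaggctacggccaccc

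The T-box string is bound by factors of the family of Eomes and Tbx21, and in Nkg7 it begins 14 bases before the annotated start. It was found on either strand in 1 of 24 listed genes with a window, Nkg7, and in 1.3% of all 27025 genes with a window. A gene was counted if any of its windows held the string. The ETS string begins 55 bases before the start of Cd79a and was found in 11 of the 24 and in 32.3% of all genes with a window. By class, that string was in 7 of 10 T cell genes, 1 of 6 B and plasma cell genes and 3 of 8 NK and cytotoxic genes. The RUNX string TGTGGTT was found in Klrk1, Ncr1, Gzma and Gzmb, 4 of 8 NK and cytotoxic genes, and in Lck, against 5.08% of all genes. The octamer ATGCAAAT was found in 0 of the 24 (1.81% of all genes with a window), and its shorter form TGCAAAT in Pou2af1 (4.02%). The GATA string AGATAA was found in Cd3g (11.4% of all genes with a window) and an EBF palindrome in Cd22 (0.914%). The longer ETS string GAGGAAGT was found in Cd5 (2.79%), and an ETS-IRF composite in Cd8a and Klrk1 (2.68%). The longer ETS string holds the whole of the shorter one, so that stretch of Cd5 is counted under both strings. These matches are letters in a window, and the arrays give no measurement of binding.

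The T cell genes gave no member without overlap and none with an unadjusted p under 0.05 (against 3.76% of all genes). Of 15 measured, 11 had a lower mean in Balb/cBy and 4 a higher one, with a median of -0.07. The CD3 chains, which carry the signal of the T cell receptor, all had lower means. Cd3d, the delta chain, stood at 7.58, 7.62 and 7.38 in Balb/c mice and at 7.43, 7.44 and 7.04 in Balb/cBy mice, a difference of -0.22 (SE 0.13). Cd3e, the epsilon chain, stood at 8.49, 8.54 and 8.31 in Balb/c mice and at 8.39, 8.25 and 8.32 in Balb/cBy mice, a difference of -0.13 (SE 0.10). Cd3g, the gamma chain, stood at 6.97, 6.88 and 6.83 in Balb/c mice and at 6.82, 6.67 and 6.96 in Balb/cBy mice, a difference of -0.08 (SE 0.10). The groups overlapped in each chain. Balb/cBy replicate 3 was the lowest of all arrays for Cd3d and the second highest for Cd3g.

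The coreceptors separate helper from cytotoxic T cells. Cd4, the helper coreceptor, which some macrophages and dendritic cells also carry, stood at 8.29, 8.55 and 8.02 in Balb/c mice and at 8.10, 8.13 and 7.89 in Balb/cBy mice, a difference of -0.24 (SE 0.15). Leaving out 1 array gave -0.38 to -0.11 for Cd4, the latter without Balb/c replicate 2, and -0.30 to -0.09 for Cd3d, the latter without Balb/cBy replicate 3. The spread between the Balb/c mice, from 8.02 to 8.55, was wider than that difference. Cd8a, the alpha chain of the cytotoxic coreceptor, had a difference of -0.02 (SE 0.10), with means of 6.89 and 6.87. Cd8b1, the beta chain, had a difference of -0.11 (SE 0.09), with means of 8.29 and 8.18. The 95% intervals of both CD8 chains held 0.

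The surface receptors Cd2, Cd5, Cd6, Cd7 and Thy1 gave differences of either sign. Cd2, an adhesion molecule of T and NK cells, had means of 7.72 and 7.68, a difference of -0.04 (SE 0.09). Cd5, which dampens antigen receptor signals, stood at 8.34, 8.49 and 8.45 in Balb/c mice and at 8.73, 8.44 and 8.40 in Balb/cBy mice, a difference of 0.10 (SE 0.12). Without Balb/cBy replicate 1, which stood above the other 5 arrays, that of Cd5 was -0.01. Cd6, a scavenger receptor related to Cd5, had means of 8.29 and 8.21, a difference of -0.08 (SE 0.10). Cd7, an immunoglobulin-family receptor of T and NK cells, had means of 7.71 and 7.65, a difference of -0.07 (SE 0.10). Thy1, a membrane-anchored glycoprotein of mouse T cells, had means of 8.49 and 8.41, a difference of -0.08 (SE 0.09). None of these 5 separated the groups.

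Signalling and fate genes of T cells lay close to 0. Zap70, the kinase recruited to the phosphorylated receptor, had means of 8.42 and 8.46, a difference of 0.04 (SE 0.09). Lat, the adaptor that Zap70 phosphorylates, stood at 8.56, 8.51 and 8.59 in Balb/c mice and at 8.83, 8.51 and 8.51 in Balb/cBy mice, a difference of 0.06 (SE 0.11). As with Cd5, Balb/cBy replicate 1 was the highest array for Lat, and without it the difference was -0.04. Gata3, a factor of T cell development and type 2 helper cells, was the 1 member with several usable probe sets. Its brighter probe set gave 0.04 (SE 0.11) and the other -0.07 (SE 0.10), so their signs disagreed. Il7r, the interleukin 7 receptor that keeps naive T cells alive, had means of 6.30 in both groups, a difference of -0.002 (SE 0.11). Of 12 measured of 18 further T cell genes, 5 were higher and 7 lower, with a median of -0.01. Those with the smallest p were Trat1 at 0.33 (SE 0.31) and Foxp3, the factor of regulatory T cells, at 0.12 (SE 0.12). Trat1 stood at 7.95 in Balb/cBy replicate 1 and between 6.63 and 6.88 on the other 5 arrays, and without that array its difference was -0.09. Without the same array the difference of Foxp3 was 0.02.

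**Figure D4:**
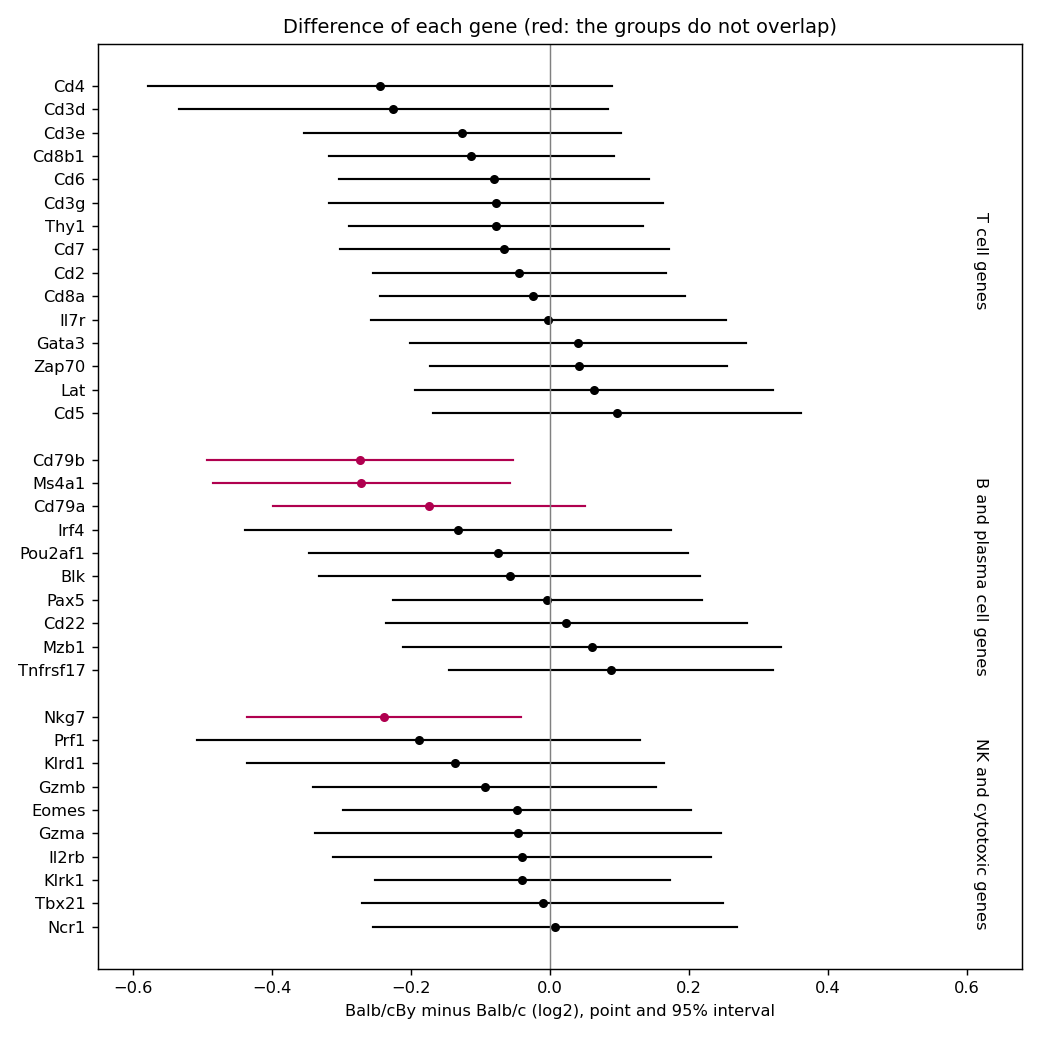
Difference of Balb/cBy minus Balb/c for each of the 35 genes (log2, horizontal axis), ordered within each cell class, with points for the estimate and lines for the 95% interval from limma. Red marks Cd79b, Ms4a1, Cd79a and Nkg7, whose groups do not overlap, and the intervals of Cd79b, Ms4a1 and Nkg7 end below 0 before any adjustment.

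Median correlations between members of a class lay between 0.06 and 0.17 from array to array. Those of arbitrary gene pairs were not computed, so these values have no reference. As a description over 6 arrays, with each array centred on its median, the median Pearson correlation between 2 members of a class was 0.06 for T cell genes (105 pairs), 0.11 for B and plasma cell genes (45 pairs) and 0.17 for NK and cytotoxic genes (45 pairs). Between classes it was 0.03 for T with B, 0.21 for T with NK and 0.12 for B with NK. All pairs share the same 6 arrays and their normalization. The class mean of the T cell genes ran from 7.81 to 7.91 in Balb/c and from 7.76 to 7.87 in Balb/cBy. That of the B and plasma cell genes ran from 7.64 to 7.80 and from 7.57 to 7.65, and that of the NK and cytotoxic genes from 7.46 to 7.58 and from 7.41 to 7.51. In each class, the ranges of the 2 groups overlapped.

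The 5 other genes that followed each class mean most closely over the 6 arrays, of 22145, had a Pearson correlation between 0.97 and 0.99. They were Cacna1b, Slitrk1, Spats2l, Tulp2 and Gm6568 for the T cell genes and Gm17830, 0610009L18Rik, 9430065F17Rik, Gm11627 and Chrna5 for the B and plasma cell genes. For the NK and cytotoxic genes they were Rnf183, Tulp2, Vax1, Slx and Nudt16l2. The members were left out before this ranking, so none of them could appear. None of the genes named is on the further lymphocyte lists, which were not left out. These genes are the top of a search through 22145 genes over only 6 arrays. What that search gives for an arbitrary set of genes was not computed. No link to lymphocytes can be read from these correlations. Slx was above the lower quartile on 0 of the 6 arrays and 9430065F17Rik on 1, and the others on all 6.

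Markers of other cell types differed in either direction, and no difference between lists was tested. Macrophage and Kupffer cell markers were higher in 9 of 14, with a median of 0.10, and those with the smallest p were Mpeg1 at 0.35 (SE 0.12) and Vsig4 at 0.41 (SE 0.16). Within that list the differences ran from -0.37 for Adgre1, the F4/80 antigen, to 0.43 for Cd68, both chosen for naming after their values were seen. Their list mean ran from 9.46 to 10.2 in Balb/c and from 9.73 to 10.1 in Balb/cBy, with Balb/c replicate 3 lowest. Neutrophil markers were higher in 8 of 11, with a median of 0.08, and those with the smallest p were Retnlg at 0.40 (SE 0.11) and S100a8 at 0.29 (SE 0.12). Retnlg was above the lower quartile on 1 of the 6 arrays and S100a8 on 5. S100a9, the partner of S100a8, was at -0.002 (SE 0.22) and was likewise named after its value was seen. Dendritic cell markers were lower in 5 of 7 (71.4%), with a median of -0.02, and the smallest p were those of Ccr7 at -0.14 (SE 0.13) and Flt3 at -0.11 (SE 0.10). Endothelial markers were higher in 5 of 7, with a median of 0.06, with Kdr at -0.23 (SE 0.13) and Lyve1 at 0.30 (SE 0.19). Hepatocyte markers were lower in 4 of 8, with a median of 0.01, with Hnf4a at 0.17 (SE 0.12) and Ttr at -0.04 (SE 0.09). Groups did not overlap for 1 of the 14 macrophage and Kupffer cell markers and 3 of the 11 neutrophil markers, each higher in Balb/cBy. Among the 7 endothelial markers 1, Kdr, was without overlap and lower. The shares of all genes without overlap were 4.32% higher and 3.51% lower. None of the 13 genes named here passed (limma adjusted p = 0.999 each). The part of these cell types in the values of the members was not tested.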

How the data were processed

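Total RNA of 6 livers, extracted with Trizol, was labelled as biotinylated cDNA from 500 ng and hybridised to 1-colour Affymetrix arrays, per the labels' protocols. The deposited log2 values per probe set were made by the authors with RMA, per the submitters' processing notes. That the scale is log2 was read from the values. The sources used here name no RMA version, filter or genome build. RMA makes levels relative to the rest of each array.

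The table held 41345 probe sets. GEO's platform annotation, which can be old, gave 1 symbol for 23521, several for 1814 and none here for 16010. Probe sets with 1 symbol were used, the brightest by mean where a gene had several. This left 22180 genes, with no filter on low values. Array medians lay between 7.66 and 7.74, and correlations between arrays between 0.972 and 0.988. The labels give no batch.

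The difference of Balb/cBy minus Balb/c came from limma 3.58.1 (lmFit, eBayes; R 4.3.3) without covariates, with Benjamini-Hochberg adjustment over all genes. Tested on simulated data with the spread of these 22180 genes, the fit recovered 26% of true log2 changes of 0.5, then 78% at a size of 1 and 98% at 2. Equal numbers of genes were changed there at each of the log2 sizes 0.5, 1, 2 and 4. Many large changes loosen the adjusted threshold, whereas no gene passed on the real arrays. These shares can therefore overstate what was detectable on the real arrays. Labels call the arrays biological replicates. The labels do not say that equal replicate numbers pair the samples, and the main fit treated them as unpaired. The members and the lists were chosen with earlier results of these data known. All members were named, with the 2 genes of smallest p in each further list and the 5 genes most like each class. The 9 promoter strings, and the further genes Alb and Apoa1 named as examples, were chosen after the values were seen, as was leaving out each array for the genes of the further lists. Of 36 listed genes 24 matched a RefSeq promoter by symbol.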

Additional observations from a re-analysis of the deposited data

How the results depend on the processing

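The alternatives were a replicate block, 2 rescalings, a minimum mean level, averaged probe sets of a gene, another variance model, array weights and leaving out each array. Array weights gave 12 genes past the threshold, and leaving out 1 array gave 0 to 3, against 0 with all arrays. The weights were 2.05 for Balb/c replicate 1, 2.53 for Balb/cBy replicate 3 and 0.47 to 0.83 for the others. The weighted fit thus rested mostly on 1 array per group. Members past the threshold stayed at 0 in all 13 settings, with a smallest adjusted p of 0.513 in limma. The replicate numbers showed no sign of pairing: deviations of same-numbered arrays from their group mean correlated at -0.32, -0.20 and -0.23. With 3 arrays per group, these values cannot settle whether the samples were paired. With the replicate block 0 genes passed, and 0 members had an unadjusted p under 0.05, a level at which all genes were not counted in that fit.

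The NK and cytotoxic median was -0.12 with array weights. Leaving out 1 array gave -0.11 to -0.036 for it, -0.15 to 0.0099 for B and plasma cell genes and -0.083 to -0.033 for T cell genes. Of 452 values of single members, 417 kept their sign and 35 turned it, none past the threshold on either side. The sign held in all settings run for 19 members, Cd79a, Cd79b, Ms4a1 and Nkg7 among them. With the arrays at 1 median, Il7r was 0.0145, Pax5 0.0135 and Tbx21 0.0065. Repeated quantile normalization gave 0.0039 for Il7r and 0.0024 for Pax5. The mean of both Gata3 probe sets gave -0.016. Array weights gave -0.0057 for Lat, -0.032 for Gata3, 0.0425 for Blk, 0.047 for Pou2af1 and -0.13 for Ncr1. Leaving out 1 array gave -0.091 to 0.018 for Cd8a, -0.009 to 0.16 for Cd5, -0.043 to 0.12 for Lat, -0.041 to 0.094 for Gata3, -0.095 to 0.052 for Il7r, -0.073 to 0.11 for Cd22, -0.18 to 0.025 for Blk, -0.044 to 0.047 for Pax5, -0.047 to 0.14 for Mzb1, -0.068 to 0.013 for Klrk1, -0.055 to 0.092 for Ncr1, -0.16 to 0.029 for Gzma, -0.13 to 0.029 for Eomes, -0.088 to 0.078 for Tbx21 and -0.14 to 0.059 for Il2rb. The cause was not tested. The minimum level left 32 members, without Il7r, Ms4a1 and Klrk1. Members above the lower quartile on all arrays numbered 32 against all probe sets and 24 against probe sets with 1 symbol.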
